A study of Mus musculus with 26 samples.

Results

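Mouse chromosome 1 was followed through the binding of ATRX, the Polycomb enzyme EZH2, the histone mark H3K27me3 and the RNA of mouse embryonic fibroblasts (MEFs). The peaks described are all those that 16 CUT&RUN peak lists placed on chromosome 1, 16496 of 272147 peaks. The genes are all those that the GENCODE M21 annotation places there, 3440 of the 53801 gene identifiers in the RNA-Seq data, and the annotation gives 1208 protein-coding genes on this chromosome. Chromosome 1 of the GRCm38 assembly (also named mm10) is 195471971 bases long, which is 7.17% of the assembled bases, and was divided into 40 fixed bins of 5 Mb numbered from its start. The chromosome was singled out with these data in view, for the median expression ratio of its genes to WT and for its share of peaks. Those values are therefore given as descriptions without a test, and nothing is read from counts of called genes set beside the count over all genes.

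The cells were female MEFs of 3 kinds, with 2 libraries per kind and assay. WT cells were the parental line. ATRXΔRBR cells were a single clone in which CRISPR removed the RNA-binding region (RBR) of the endogenous Atrx gene in frame. The guides for it were on a plasmid with a puromycin resistance gene. ATRX KD cells carried a short hairpin RNA (shRNA) against Atrx and were selected with puromycin. CUT&RUN, in which an antibody directs the release of the chromatin fragments it binds, was done for ATRX in WT and ATRXΔRBR cells and for EZH2 and H3K27me3 in all 3 kinds, and poly(A) RNA was sequenced from all 3. The RNA-Seq libraries held between 9051712 and 21723597 estimated counts. Atrx itself gave 633 and 434 estimated counts scaled to library size (CPM) in WT, 371 and 312 in ATRXΔRBR, with 411 and 550 in the libraries labelled ATRX KD. One ATRX KD value lay between the WT replicates and the other just below them, and the log2 difference from WT was −0.15 (adjusted p = 0.604, edgeR quasi-likelihood test with Benjamini-Hochberg adjustment), so the RNA gave no check of the knockdown label. The study assessed its knockdown lines by western blot and describes ATRX protein as depleted in them. The raw files of the ATRX KD libraries were also named in another form, with no sequencing run given, so the knockdown and a batch cannot be told apart. Summed fibroblast marker levels lay between 6447 and 10190 TPM in the 6 libraries, and those of macrophage markers between 9.19 and 16.3. Endothelial markers summed to 1.41 and 1.90 TPM in WT, 5.38 and 3.16 in ATRXΔRBR, with 0.29 and 0.05 in ATRX KD, and epithelial markers to at most 1.12 in any library. Skeletal muscle markers, among them the chromosome 1 gene Des, summed to 0.39 and 0.24 TPM in WT, 2.23 and 1.76 in ATRXΔRBR, with 0.93 and 0.26 in ATRX KD. The part of such cells in the results was not tested. The study's methods call the libraries biological replicates, but neither they nor the labels say that these were separate cultures, and the p-values measure the spread between these libraries.

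ATRX is a chromatin remodeller of the SWI/SNF family that deposits the histone variant H3.3 at repetitive DNA together with DAXX, and it binds RNA. EZH2 is the catalytic subunit of Polycomb repressive complex 2 (PRC2), which methylates lysine 27 of histone H3. The trimethylated form, H3K27me3, often covers broad domains over silent genes, in fibroblasts mostly genes of other lineages.

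The 3 stretches of chromosome 1 printed here lie under ATRX peaks. They are single examples of the 3 fates that a peak could have between WT and ATRXΔRBR, namely lost, gained or retained. The lost one is the peak with the highest mean fold enrichment among the 6 lost peaks at a TSS, the gained one is the 1 gained peak at a TSS, and the retained one has the highest mean fold enrichment of all 63. Lost peaks away from a TSS reached a higher enrichment. Each stretch is the middle 200 bases of its peak, on the plus strand of GRCm38, with CG dinucleotides in capitals. The lost peak was called in both WT lists and in neither ATRXΔRBR list. It lies at chr1:86472141-86472514, the bases shown are chr1:86472228-86472427, and the nearest transcription start site (TSS) is that of the ribosomal protein pseudogene Rpl30-ps6 at 1145 bp. The gained peak, at chr1:90975104-90975415 with chr1:90975160-90975359 shown, lies over the TSS of Gm28199, a gene model named only by number. The retained peak, called in all 4 lists, lies at chr1:78537483-78538100 within Mogat1, which encodes an acyltransferase of triglyceride synthesis, and chr1:78537692-78537891 is shown.
lost: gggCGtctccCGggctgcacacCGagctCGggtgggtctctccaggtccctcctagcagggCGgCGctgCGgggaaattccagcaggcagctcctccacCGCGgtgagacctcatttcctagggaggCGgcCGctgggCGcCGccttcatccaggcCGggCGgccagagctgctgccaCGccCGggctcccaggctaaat
gained: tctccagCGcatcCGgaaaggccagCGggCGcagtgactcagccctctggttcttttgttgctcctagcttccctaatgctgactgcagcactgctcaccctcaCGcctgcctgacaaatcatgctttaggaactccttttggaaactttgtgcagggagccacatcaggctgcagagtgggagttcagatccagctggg
retained: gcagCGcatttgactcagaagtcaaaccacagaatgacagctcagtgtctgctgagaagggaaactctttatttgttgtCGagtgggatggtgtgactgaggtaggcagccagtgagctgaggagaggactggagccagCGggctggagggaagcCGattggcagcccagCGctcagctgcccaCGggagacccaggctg

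The lost stretch held 17 CG in 200 bases and was 71% GC, against 5 CG and 56% in the gained stretch and 6 CG and 58% in the retained one. The sets they come from did not differ in this way. Over whole peaks, the mean GC content was 49.3% in the 29 lost, 48.8% in the 8 gained and 49.3% in the 63 retained peaks. In the 200 bases before the start of the 2014 chromosome 1 genes in the RefSeq promoter table (GRCm38.p6), the median was 4 CG, with quartiles of 2 and 13. The fold enrichment over local background was 4.45 and 4.10 in the WT lists at the lost peak and 5.99 and 6.23 in the ATRXΔRBR lists at the gained one. At the retained peak it was 4.33 and 5.49 in WT and 8.57 and 5.77 in ATRXΔRBR. The gained and the retained stretch lay under an EZH2 peak in all 4 WT and ATRXΔRBR lists, and neither lay under an H3K27me3 peak in any list. The lost stretch lay under an EZH2 peak in 2 of those lists, the first of each genotype.

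Chromosome 1 genes had, on the median, more RNA relative to the genome in both altered genotypes than in WT. Among the 732 genes with a mean of at least 1 CPM, the median log2 ratio to WT was 0.35 and 0.28 in the ATRXΔRBR libraries and 0.27 and 0.25 in the ATRX KD libraries, where the median over all genes was set to 0. The WT libraries lay 0.024 to either side of their mean. The ratio of the mean of the 2 libraries was 0.32 in ATRXΔRBR, where 80.5% of the genes were above 0, and 0.24 in ATRX KD, where 64.8% were. The other 19 chromosomes ranged from −0.23 to 0.29 in ATRXΔRBR and from −0.41 to 0.32 in ATRX KD, so chromosome 1 had the highest median in ATRXΔRBR and ranked 5 of 20 in ATRX KD. It ranked 2 in ATRXΔRBR without WT replicate 1, without ATRXΔRBR replicate 1 or without a filter on low levels, and from 3 to 6 in ATRX KD over the alternatives. The middle of the distribution spanned 0.089 to 0.58 in ATRXΔRBR and the wider range of −0.20 to 0.70 in ATRX KD (quartiles). In bulk RNA, a change in the number of cells of a kind and a change in RNA per cell cannot be told apart. Both ratios share the WT libraries. With every gene of at least 1 count in place of at least 1 CPM, the chromosome 1 medians were 0.10 and 0.0046.

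**Figure D1:**
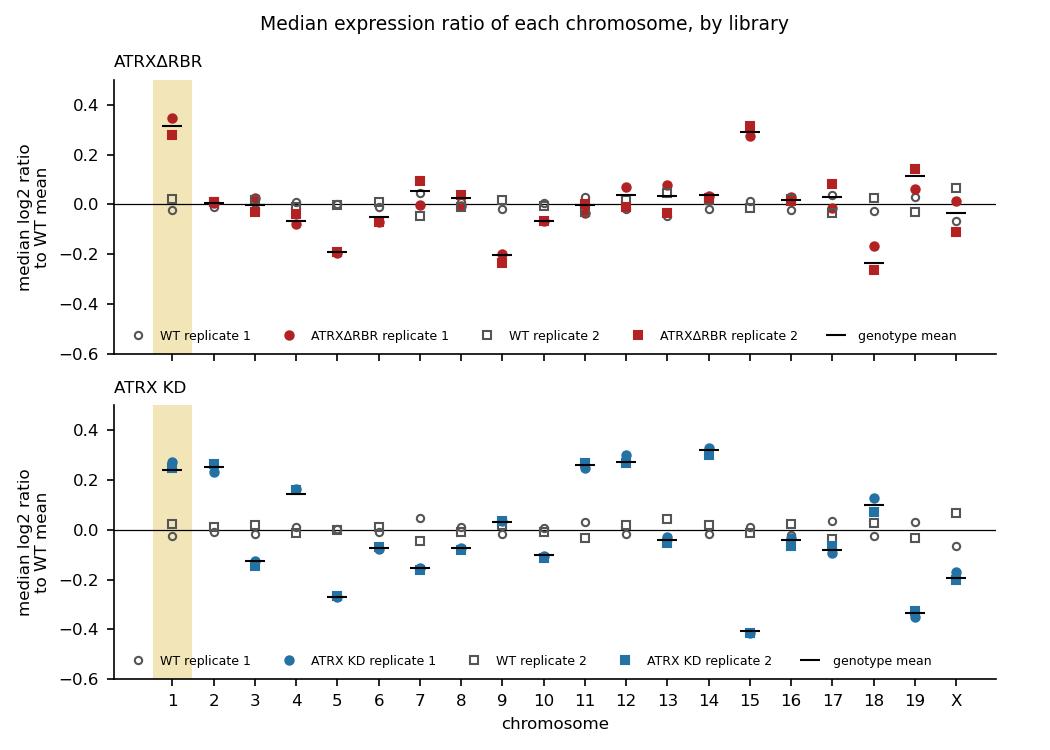
Median log2 expression ratio to WT (vertical axis) of the genes of each chromosome (horizontal axis) in the ATRXΔRBR and ATRX KD libraries, with the median over all genes set to 0. Chromosome 1 lies at 0.32 in ATRXΔRBR, above the other 19 chromosomes, and at 0.24 in ATRX KD, below 4 of them.

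The medians were also read by expression level. In the third of genes with the lowest levels (1.03 to 19.0 CPM, 244 genes) the ATRXΔRBR libraries gave 0.26 and 0.27 and the ATRX KD libraries 0.15 and 0.066. In the third with the highest levels (63.8 to 3278 CPM) the ATRXΔRBR libraries gave 0.36 and 0.23 and the ATRX KD libraries 0.36 and 0.33. Both ATRX KD libraries were thus higher at high levels, while the ATRXΔRBR libraries moved in opposite directions. Over the mean of both libraries, the 3 classes from low to high had medians of 0.26, 0.35 and 0.31 in ATRXΔRBR, against 0.095, 0.26 and 0.36 in ATRX KD. The difference between the WT replicates in the same classes was −0.021, 0.043 and 0.086.

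Along the chromosome, 17 of the 40 bins held at least 20 such genes, 22 held fewer and bin 6 held none. All 17 filled bins had a median above 0 in both genotypes, and in ATRX KD 16 of 17 did without WT replicate 2 or without ATRX KD replicate 2. Both ATRXΔRBR libraries lay above both WT libraries in 17 of the 17 bins, where 24.5% of filled bins did so over the genome, and both ATRX KD libraries in 16, where 43.9% did. In ATRXΔRBR the filled bins ranged from 0.20 in bin 34 (165 to 170 Mb), where the libraries gave 0.19 and 0.21, to 0.55 in bin 28 (135 to 140 Mb), where they gave 0.62 and 0.45. In ATRX KD they ranged from 0.0021 in bin 18 (85 to 90 Mb), with libraries at −0.068 and 0.094, to 0.57 in bin 32 (155 to 160 Mb), with libraries at 0.61 and 0.53. Bin 18 was thus within the difference between its own WT replicates, which over the filled bins ran from −0.19 to 0.12. The SD over the filled bins was 0.089 in ATRXΔRBR and 0.16 in ATRX KD. Bins with fewer than 20 genes scattered from −1.11 to 0.72 in ATRXΔRBR and from −0.63 to 0.77 in ATRX KD.

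**Figure D2:**
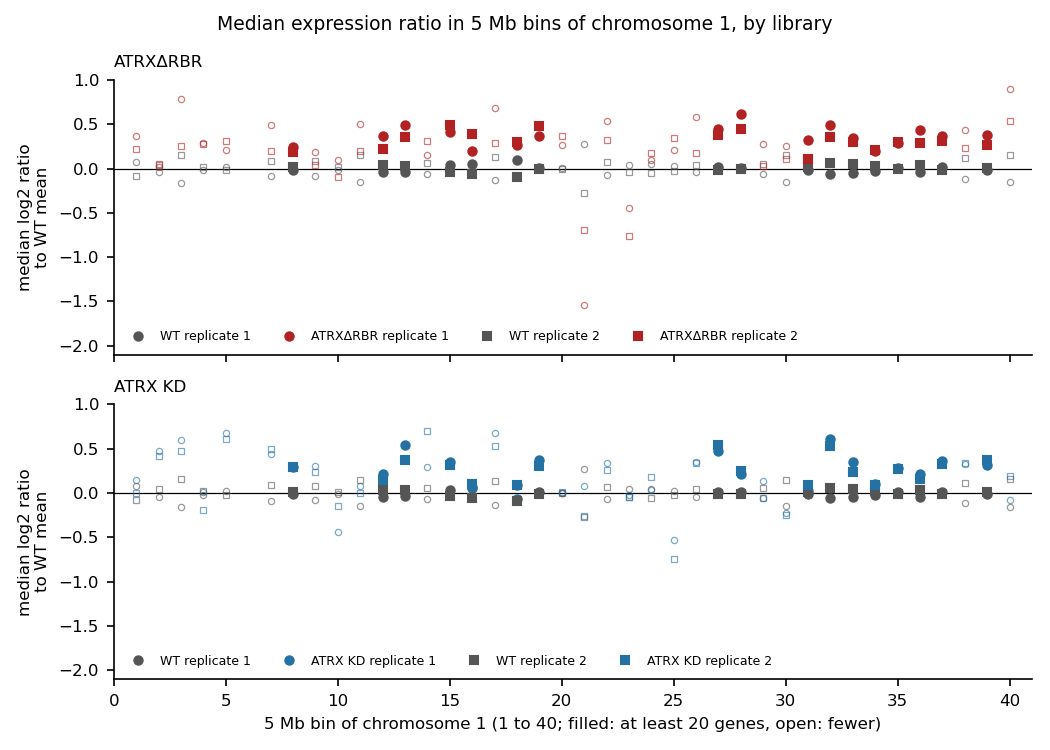
Median log2 expression ratio to WT (vertical axes) in the 40 bins of 5 Mb along chromosome 1 (horizontal axis), with filled points for bins of at least 20 genes and open points for bins with fewer. Each point is 1 library, with WT in grey, and the filled points of the altered genotypes lie above 0 except that of 1 ATRX KD library in bin 18, at −0.068.

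Single abundant genes of the outlying bins did not always follow the median of their bin. Bin 28 held Csrp1, a LIM protein of smooth muscle and fibroblasts, at 135 and 117 CPM in WT, 195 and 243 in ATRXΔRBR, with 95.6 and 96.8 in ATRX KD. Csrp1 was thus highest in both ATRXΔRBR libraries and lowest in both ATRX KD libraries, where the median of its bin was 0.24. It rose by a log2 fold change of 0.80 ± 0.18 (SE) in ATRXΔRBR (adjusted p = 0.0406) and fell by 0.40 ± 0.13 in ATRX KD (adjusted p = 0.0479), and these calls were lost without WT or ATRXΔRBR replicate 2 and without either ATRX KD replicate. In bin 18, Ncl, which encodes the nucleolar protein nucleolin, gave 1711 and 1505 CPM in WT, 1694 and 1599.9 in ATRXΔRBR, against 1309.5 and 1347 in ATRX KD. The ATRX KD libraries lay below both WT libraries, with a log2 difference of −0.28 ± 0.11 that did not pass the test (adjusted p = 0.0925). In bin 32, Qsox1, a secreted enzyme that forms disulfide bonds, had 119.85 and 112 CPM in WT, 119 and 136 in ATRXΔRBR, with 183 and 181 in ATRX KD, and rose by 0.64 ± 0.11 in ATRX KD (adjusted p = 0.00593), a call lost without either ATRX KD replicate.

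Peaks of H3K27me3 took a larger share of their list on chromosome 1 in both altered genotypes than in WT. Chromosome 1 held 4.96% and 5.10% of the H3K27me3 peaks of the WT lists (1784 and 1978 peaks), 7.47% and 7.34% in ATRXΔRBR (2885 and 2427) and 8.11% and 8.34% in ATRX KD (585 and 526). The WT shares were below the 7.17% of bases that the chromosome holds, and the shares of both other genotypes were above it. The share in ATRXΔRBR was 1.47 times that in WT, rank 2 of 20 chromosomes after chromosome 13 at 1.50. The share in ATRX KD was 1.64 times that in WT, the highest of 20, followed by chromosome 10 at 1.57. The lists differ in their number of peaks and the files do not give the reads behind each list, so a share and not a number is compared. The study's methods and its list of antibodies name different antibodies for H3K27me3.

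The H3K27me3 peaks of chromosome 1 also differed in width between the genotypes. They covered 2.39% and 2.72% of the chromosome in WT, 5.38% and 4.74% in ATRXΔRBR, against 0.275% and 0.236% in ATRX KD. Their median width was 1150.5 and 1151.5 bp in WT, 1722 and 1957 bp in ATRXΔRBR, with 794 and 737.5 bp in ATRX KD. Peaks of 5 kb or more numbered 231 and 266 in WT and 596 and 559 in ATRXΔRBR, while the widest in the ATRX KD lists were 4.25 and 4.41 kb. In ATRX KD the share on chromosome 1 was therefore that of a list of few and narrow peaks, and the EZH2 lists of these cells also held no peak wider than 4.45 kb on chromosome 1, against 19.3 and 17.5 kb in WT.

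For EZH2 the share on chromosome 1 was 5.22% and 5.46% in WT and 6.73% and 6.61% in ATRX KD, a ratio of 1.25. That was the highest of 20 chromosomes but close to chromosome X at 1.24, and the same-numbered replicates of chromosome 1 gave 1.29 and 1.21. The ATRXΔRBR lists gave 6.12% and 4.87%, one above and one below both WT lists, so that their ratio of 1.03 lay within the spread between replicates. For ATRX the WT lists gave 5.51% and 5.48% and the ATRXΔRBR lists 6.79% and 4.40%, again on either side of WT. Over the mean of both lists, the difference of the ATRX share was 0.095 percentage points, and without ATRXΔRBR replicate 1 it was −1.10. For EZH2 in ATRXΔRBR the difference of 0.15 became −0.48 without that replicate.

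**Figure D3:**
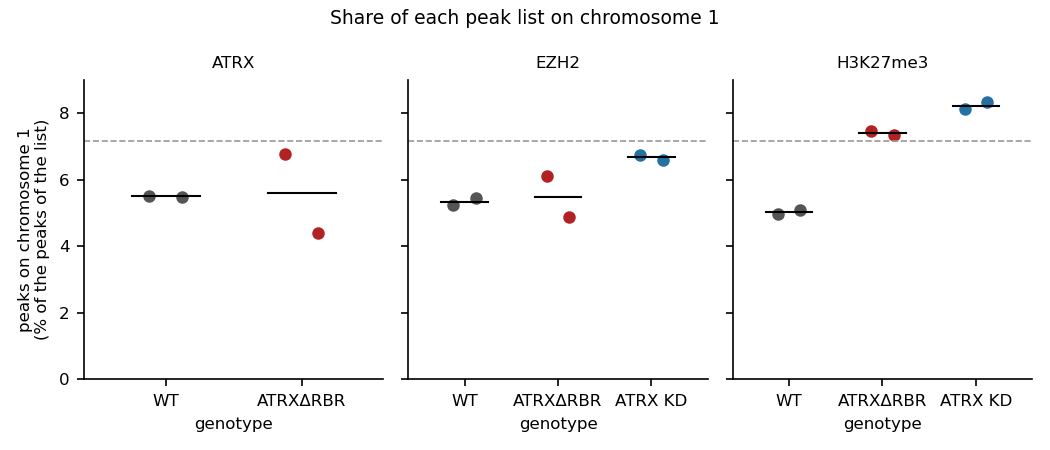
Share of each peak list on chromosome 1 (vertical axis, percent), by target and genotype, with 1 point per list and the dashed line at the 7.17% of assembled bases that the chromosome holds. The H3K27me3 lists of WT lie at 4.96% and 5.10%, below the line, and those of ATRXΔRBR and ATRX KD lie between 7.34% and 8.34%, above it.

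Within the chromosome, the rise of the H3K27me3 share was uneven. Over the 39 bins with peaks in WT or ATRXΔRBR, both ATRXΔRBR lists lay above both WT lists in 24 bins and below both in 11, where 40.1% and 42.3% of bins did so over the genome. In ATRX KD, 27 of 40 bins lay above and 5 below, against 43.3% and 33.5%, and the 27 became 16 among the peaks whose q-value was at most 0.01. The net rise in ATRXΔRBR was 2.37 percentage points, made of rises that sum to 2.90 and falls that sum to −0.53, and the 5 bins with the largest rises (11, 9, 33, 27 and 18) held 47.1% of the rises. In ATRX KD the net rise was 3.20 percentage points, and the top 5 bins (36, 18, 11, 9 and 14) held 37.8% of the rises.

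Bin 11 (50 to 55 Mb), which holds the cytokine signalling gene Stat4 and the muscle growth inhibitor Mstn, rose most in ATRXΔRBR. It held 31 and 39 H3K27me3 peaks in WT, 202 and 178 in ATRXΔRBR, against 28 and 25 in ATRX KD, which are 0.0862% and 0.101%, 0.523% and 0.538%, and 0.388% and 0.397% of the lists. The bases covered were 57.1 and 68.7 kb in WT, 832 and 728 kb in ATRXΔRBR, with 24.5 and 21.5 kb in ATRX KD. Both other genotypes thus had a higher share than WT in both lists, but ATRX KD had fewer peaks and covered less. Bin 33 (160 to 165 Mb) rose from 12 and 19 peaks in WT to 95 and 97 in ATRXΔRBR, with 12 and 11 in ATRX KD, and bin 28 from 5 and 10 to 91 and 72, with 11 and 14 in ATRX KD.

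The opposite was seen in bin 39 (190 to 195 Mb), which holds Cd34 and Lamb3. It had 133 and 127 H3K27me3 peaks in WT, 65 and 62 in ATRXΔRBR, against 29 and 29 in ATRX KD, or 0.370% and 0.328%, 0.168% and 0.187%, and 0.402% and 0.460% of the lists. The share was lower than WT in both ATRXΔRBR lists and higher in both ATRX KD lists. In bin 12 (55 to 60 Mb) the directions were exchanged, with 0.509% and 0.493% in WT, 0.567% and 0.556% in ATRXΔRBR, with 0.291% and 0.349% in ATRX KD.

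**Figure D4:**
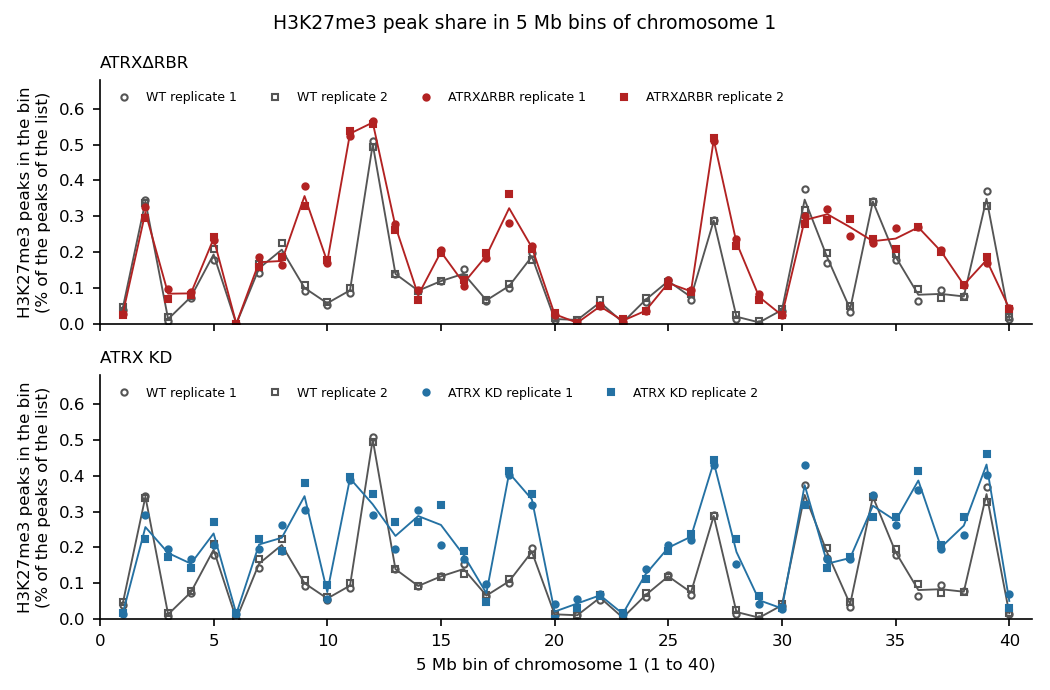
Share of the H3K27me3 peaks of each list (vertical axis, percent) in the 40 bins of 5 Mb along chromosome 1 (horizontal axis), by genotype. Bin 11 rises from 0.0862% and 0.101% in WT to 0.523% and 0.538% in ATRXΔRBR, and bin 39 falls from 0.370% and 0.328% to 0.168% and 0.187%.

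Set side by side over the 17 filled bins, the change of the H3K27me3 share and the median expression ratio had a Spearman rho of 0.66 in ATRXΔRBR and of 0.059 in ATRX KD. These are descriptions over bins that share their libraries, and the chromosome was singled out with both kinds of value in view. No link between the mark and the RNA is read from them. All 17 filled bins had an expression median above 0 in ATRXΔRBR. Bin 28, which had the highest, was among the 24 of 39 bins with a higher H3K27me3 share in both ATRXΔRBR lists.

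For EZH2, 26 of 40 bins lay above WT in both ATRX KD lists and 2 below, where 35.4% and 29.3% did over the genome. In ATRXΔRBR, 6 of 39 bins lay above and 7 below for EZH2 (13.8% and 25.3% over the genome), and 2 above and 7 below for ATRX (11.3% and 15.7%). Without ATRXΔRBR replicate 2, the bins above WT numbered 19 for EZH2 and 21 for ATRX.

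At the 1208 protein-coding TSS of the chromosome, read within 2 kb on each side, H3K27me3 was gained in ATRXΔRBR at 95 (in both ATRXΔRBR lists and neither WT list), lost at 64 and kept at 88. These are 7.86% and 5.30% of the TSS for gain and loss, where 3.63% and 4.3% did so over the genome. In ATRX KD it was gained at 8, lost at 74 and kept at 62, where 0.328% and 8.64% of TSS over the genome gained and lost it.

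The TSS that gained H3K27me3 in ATRXΔRBR included clusters of neighbouring gene families. Bin 33 held 12 of them, among them the selectins Selp and Sele, adhesion molecules of platelets and endothelium, the clotting factor F5 and the flavin monooxygenases Fmo1, Fmo2 and Fmo6. Bin 18 held 9, among them 7 members of the Ugt1a locus, whose enzymes conjugate glucuronic acid to bilirubin and drugs and whose TSS lie next to each other. Bin 27 held 8, among them the cytokines Il10 and Il19, and bin 11 held 7, among them Stat4 and Mstn. The median level of the gained genes was 0.025 TPM in WT, and 29 of the 95 had counts enough to be tested. Of these 29, 1 rose and 4 fell, where 2.79% of all genes rose and 4.08% fell. The 5 that passed are named after their values were seen. Paqr8, a membrane progestin receptor (log2 fold change −2.23), Slc40a1, the iron exporter ferroportin (−1.81), Nck2, an adaptor of tyrosine kinase signalling (−1.61), and Kdm5b, a demethylase of histone H3 lysine 4 (−1.08), fell in ATRXΔRBR, and Inpp4a, a phosphoinositide phosphatase, rose by 0.75. The call of Inpp4a was lost without any of the 4 libraries, that of Kdm5b without ATRXΔRBR replicate 2, and both with the replicate number as a block. In ATRX KD, where none of these 5 was among the 8 gains, Paqr8 rose by 2.25 (adjusted p = 0.000319) and Slc40a1 fell by 2.48 (adjusted p = 0.000662). Inpp4a also passed the test in ATRX KD, as did other genes of the 95, while Kdm5b did not.

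The TSS that lost H3K27me3 in ATRXΔRBR included developmental regulators, such as Sox17 of endoderm, En1 of limb and midbrain, Lhx9 of gonad and limb, Tfap2b and Pax3 of neural crest and Prdm14 of germ cells. Of the 64, 12 could be tested, and 1 rose and 4 fell, where 2.79% of all genes rose and 4.08% fell. Pax3 rose, and Chst10, Mgat4a, Mark1 and Igfbp2 fell to counts at or near 0. For the latter 4, both the RNA and the H3K27me3 peak at the TSS of WT were missing or nearly so in ATRXΔRBR.

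Pax3 (chr1:78101267-78197134, minus strand), a transcription factor of neural crest and muscle precursors, gave 2 and 2 counts in WT, 105 and 196 in ATRXΔRBR, against 0 and 0 in ATRX KD. Both ATRXΔRBR libraries stood far above the other 4. The log2 fold change in ATRXΔRBR was 6.23 ± 0.41 (adjusted p = 0.000336), and its TSS had an H3K27me3 peak in both WT lists and in none of the 4 others. In ATRX KD the gene was too low for the test. The summed skeletal muscle markers were also higher in both ATRXΔRBR libraries (2.23 and 1.76 TPM) than in WT (0.39 and 0.24). Of the 4 markers, 3 were under 1 TPM in every library. Des, one of the 4 markers, is itself on chromosome 1. It was called in ATRXΔRBR (log2 fold change 2.79, adjusted p = 0.0194), a call lost without ATRXΔRBR replicate 2. The sum is therefore not separate from the genes described here, and the part of these markers in the rise of Pax3 was not tested.

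In ATRX KD the 8 TSS that gained H3K27me3 included those of Slco5a1, an organic anion transporter, Ikzf2, the Helios transcription factor of lymphocytes, and Pard3b, a cell polarity protein. All 3 fell in ATRX KD, and they are the members of the 8 that passed the test. Of the 8, 5 could be tested, and 17.8% of all genes fell in ATRX KD. Slco5a1, with 13 and 17 counts in WT, was at 0 in both ATRX KD libraries and also in both ATRXΔRBR libraries, where its TSS had no H3K27me3 peak in either list. Ikzf2 had 4.28 and 6.01 CPM in WT, 2.73 and 1.16 in ATRXΔRBR, with 0.545 and 0.416 in ATRX KD, so the 3 genotypes did not overlap. It fell by 3.46 ± 0.41 in ATRX KD (adjusted p = 0.00135), while the difference in ATRXΔRBR, −1.43 ± 0.45, did not pass the test (adjusted p = 0.110). Its TSS had an H3K27me3 peak in all 4 ATRXΔRBR and ATRX KD lists and in neither WT list.

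EZH2 at the TSS was read in the same way. In ATRXΔRBR no TSS gained EZH2 by this rule, as over the genome (0%), 6 lost it (Tfap2b, Il1r1, Cacna1s, Mixl1, Arhgef4 and Ascl5, where 1.19% of TSS did over the genome) and 359 kept it. In ATRX KD, 169 lost it (14.0%, against 18.3% over the genome), 1 gained it (against 0.141%) and 236 kept it. EZH2 peaks lay at a TSS in 54.8% and 58.9% of cases in WT, 46.0% and 72.8% in ATRXΔRBR, against 73.2% and 69.9% in ATRX KD. The second ATRXΔRBR list, with 555 peaks against 1371 in the first, and the ATRX KD lists, with 358 and 465, thus had few peaks and a larger part of them at a TSS.

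Genes grouped by their WT promoter differed in expression level and in their median ratio. The 442 TSS with EZH2 but no H3K27me3 in WT belonged to genes with a median of 28.7 TPM, and their median log2 ratio was 0.32 in ATRXΔRBR and 0.31 in ATRX KD. The 94 TSS with EZH2 and H3K27me3 belonged to genes with a median of 0.09 TPM, and the 23 of them with at least 1 CPM had a median ratio of −0.24 in ATRXΔRBR and 0.20 in ATRX KD. The 498 TSS with neither gave 0.31 and 0.16 over 117 genes. In the class with both marks, 4 genes rose and 11 fell of 37 tested in ATRXΔRBR, and 8 rose and 12 fell of 38 in ATRX KD, while in the class with EZH2 alone 29 rose and 8 fell of 428, and 154 rose and 41 fell of 431. Over all genes 2.79% rose and 4.08% fell in ATRXΔRBR, and 15.2% and 17.8% in ATRX KD.

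Of the 984 chromosome 1 genes tested in ATRXΔRBR, 107 passed the test, 70 higher and 37 lower than in WT. That is 10.9%, where 6.88% of all genes passed, 2.79% higher and 4.08% lower. The 2456 other genes did not have more than 10 counts in total, and 1622 of them had none. The median log2 fold change of the tested genes was 0.32, against −0.016 for all genes. The genes that passed upward did so by a median log2 fold change of 1.28 and the median of those that fell was −3.04, and 47 and 36 of them changed more than 2-fold. In ATRX KD, 356 of 1013 passed (35.1%), 246 higher and 110 lower, where 33.1% of all genes passed, 15.2% higher and 17.8% lower. The median was 0.25, against −0.020 for all genes. Both comparisons called 71 genes, or 66.4% of the ATRXΔRBR calls and 19.9% of the ATRX KD calls. Of these, 30 rose in both, 20 fell in both and 21 went in opposite directions. The same overlap over all genes is not given here, so nothing particular to chromosome 1 is read from it. The comparisons share the WT libraries. Counts of calls depended on single libraries, since the ATRX KD count was 231 without ATRX KD replicate 2 and 539 without WT replicate 2.

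Genes of the extracellular matrix on chromosome 1 included some of the largest changes. Of 13 tested, 4 rose and 1 fell in ATRXΔRBR and 7 rose and 4 fell in ATRX KD, where 6.88% and 33.1% of all genes passed in the 2 comparisons. The median log2 fold change was 0.50 and 0.69, against 0.32 and 0.25 over all tested chromosome 1 genes. Col3a1 (chr1:45311538-45349706), the chain of fibrillar type III collagen, gave 71.6 and 61.2 CPM in WT, 35.9 and 34.3 in ATRXΔRBR, with 0.436 and 0.555 in ATRX KD. The 3 genotypes did not overlap, and the ATRX KD libraries were near 0. It fell by 6.99 ± 0.23 in ATRX KD (adjusted p = 2.44e-05) and by 0.91 ± 0.18 in ATRXΔRBR (adjusted p = 0.0225), a call lost without WT replicate 1, without ATRXΔRBR replicate 2 and with the replicate number as a block. Col6a3 (chr1:90765923-90843971), a chain of microfibrillar type VI collagen, gave 54.7 and 66.9 CPM in WT, 150.1 and 101 in ATRXΔRBR, against 0.763 and 0.0925 in ATRX KD. It was highest in both ATRXΔRBR libraries and almost absent from both ATRX KD libraries. The log2 fold changes were 1.06 ± 0.24 (adjusted p = 0.0363, lost without ATRXΔRBR replicate 1) and −7.62 ± 0.45 (adjusted p = 0.000133).

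Prelp, a leucine-rich proteoglycan of basement membranes, followed the same order at a lower level, with 0.611 and 0.835 CPM in WT, 8.29 and 7.48 in ATRXΔRBR, with 0 and 0 in ATRX KD. It rose by 3.44 ± 0.35 in ATRXΔRBR (adjusted p = 0.00137) and was at least 3.10-fold lower in ATRX KD, taking 3 counts per library as the floor. Gpc1, a heparan sulfate proteoglycan of the cell surface, instead rose in both, with 70.5 and 51.2 CPM in WT, 179.5 and 210.1 in ATRXΔRBR, against 227 and 247 in ATRX KD (1.69 ± 0.21, adjusted p = 0.00302, and 1.96 ± 0.17, adjusted p = 0.000486). Fn1, the matrix glycoprotein fibronectin, was the list's most abundant member, at 1722 and 2283 CPM in WT, 4685 and 3008 in ATRXΔRBR, with 3771 and 4201 in ATRX KD. All 4 altered libraries lay above both WT libraries, but only the ATRX KD difference passed the test (0.99 ± 0.15, adjusted p = 0.00358). The ATRXΔRBR difference was 0.95 ± 0.25 (adjusted p = 0.0621). Lamc1, the laminin gamma-1 chain, rose by 1.37 ± 0.16 in ATRX KD (adjusted p = 0.00123).

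Sulf1 (chr1:12692277-12861192), which trims sulfate from heparan sulfate, gave 80 and 100 counts in WT, 0 and 0 in ATRXΔRBR, against 298 and 702 in ATRX KD. It was at least 27.1-fold lower in ATRXΔRBR than in WT and rose by 2.16 ± 0.19 in ATRX KD (adjusted p = 0.000523). The genotypes therefore lay on opposite sides of WT.

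The list of ligands, receptors and secreted regulators also held Rgs genes, which are regulators of G protein signalling and none of these. Among 21 tested members, 2 rose and 5 fell in ATRXΔRBR and 7 rose and 6 fell in ATRX KD (6.88% and 33.1% of all genes passed). Cd34 (chr1:194938819-194961279), a sialomucin of progenitor cells and of some fibroblasts, gave 159 and 178 CPM in WT, 22.5 and 21.7 in ATRXΔRBR, with 0.218 and 0.185 in ATRX KD. Each genotype was separate from the next. Cd34 fell by 2.93 ± 0.19 in ATRXΔRBR (adjusted p = 0.000336) and fell by 9.69 ± 0.23 in ATRX KD (adjusted p = 1.48e-05), and no H3K27me3 or EZH2 peak lay at its TSS in any list. Wnt10a, a secreted Wnt ligand of skin and teeth, gave 66 and 41 counts in WT and none in the other 4 libraries, so it was at least 15.9-fold lower in ATRXΔRBR and at least 18.2-fold lower in ATRX KD. Its TSS had an H3K27me3 peak in all 6 lists. Of the Rgs genes, Rgs4 and Rgs16 fell in ATRXΔRBR by 1.59 ± 0.26 and 2.73 ± 0.39, and Rgs2 fell in ATRX KD by 3.54 ± 0.33.

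Receptors and ligands that rose in ATRX KD included Tgfb2, a ligand of the TGF-beta family, with 20.2 and 16.2 CPM in WT, 29.0 and 26.8 in ATRXΔRBR, against 94.9 and 86.6 in ATRX KD. All ATRX KD values were above all others, and the rise was 2.31 ± 0.16 (adjusted p = 0.000199). The ATRXΔRBR libraries also lay above WT, by a log2 difference of 0.62 ± 0.20 that did not pass (adjusted p = 0.116). Epha4, a receptor for ephrins, rose by 2.53 ± 0.25 in ATRX KD, Nrp2, a receptor for semaphorins and VEGF, by 1.59 ± 0.11, and Bmpr2, a receptor for bone morphogenetic proteins, by 1.20 ± 0.11. Fzd5, a receptor for Wnt ligands, rose in both genotypes, by 1.40 ± 0.20 in ATRXΔRBR and by 1.49 ± 0.18 in ATRX KD. Il1rl1, the receptor for interleukin-33, was highly expressed, at 725 and 806 CPM in WT, 877 and 735 in ATRXΔRBR, with 346 and 346 in ATRX KD. It fell by 1.15 ± 0.11 in ATRX KD (adjusted p = 0.000662) while the ATRXΔRBR values overlapped those of WT.

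Of 19 developmental transcription factors tested in ATRXΔRBR, 3 rose, among them Pax3 and Eya1, and Gli2 fell, and of 18 tested in ATRX KD, 2 rose, among them Pou2f1, and Twist2, Ikzf2, En1 and Sox13 fell, where 6.88% and 33.1% of all genes passed. The call of Twist2 was lost without either ATRX KD replicate, that of En1 without WT replicate 1 or ATRX KD replicate 2 and that of Sox13 without ATRX KD replicate 2. Gli2 (chr1:118834132-119053619), a mediator of Hedgehog signalling, gave 92 and 88 counts in WT, 1 and 0 in ATRXΔRBR, against 64 and 212 in ATRX KD. The 2 ATRXΔRBR libraries had almost none, and the ATRX KD libraries, at 6.98 and 9.81 CPM, lay around the 7.03 and 7.35 of WT. It fell in ATRXΔRBR (adjusted p = 0.000827), and the pooled counts of 180 against 1 gave a ratio of 167, with an exact 95% counting interval of 29.6 to 6642. Eya1, a phosphatase and transcriptional cofactor of organ formation, rose by 1.42 ± 0.19 in ATRXΔRBR (adjusted p = 0.00441), with 17.2 and 20.7 CPM in WT, 53.1 and 48.0 in ATRXΔRBR, with 16.8 and 16.2 in ATRX KD. Prrx1, a mesenchymal homeobox factor and the most abundant of the list with 299.9 and 327 CPM in WT, passed neither test, with log2 differences of 0.30 ± 0.18 and 0.29 ± 0.11.

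Of the interferon-inducible genes of the chromosome, none of 8 tested in ATRXΔRBR passed edgeR's test, 1 had an unadjusted p under 0.05 and DESeq2 called none, while in ATRX KD 1 of 7 tested rose and Ifi203 and Ifi204 fell. These counts are near the 6.88% and 33.1% of all genes that passed. Ifi202b, a member of the same cluster of DNA sensors that was named for the size of its change, gave 339 and 474 counts in WT, 373 and 451 in ATRXΔRBR, against 0 and 1 in ATRX KD. It fell in ATRX KD (adjusted p = 9.72e-05), and the ratio of pooled counts, 813 against 1, was 998 with an exact 95% counting interval of 179 to 39486. Ifi204 gave 29.6 and 34.1 CPM in WT, 38.1 and 36.4 in ATRXΔRBR, with 10.0 and 8.10 in ATRX KD, a fall of 1.83 ± 0.18 (adjusted p = 0.000732). Reads of the cluster's near-identical copies may be divided among them, so the values of single members are uncertain.

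Of 26 genes of the cell cycle, DNA repair and apoptosis, Kif14, Bard1 and Kifap3 rose in ATRXΔRBR and 23 did not pass, and in ATRX KD 13 rose and 2 fell. Over all genes 2.79% rose in ATRXΔRBR and 15.2% in ATRX KD. Kif14, a kinesin of cytokinesis, gave 13.5 and 17.7 CPM in WT, 49.7 and 40.3 in ATRXΔRBR, against 89.4 and 88.8 in ATRX KD. The 3 genotypes did not overlap. It rose by 1.53 ± 0.22 in ATRXΔRBR (adjusted p = 0.00554) and by 2.51 ± 0.16 in ATRX KD (adjusted p = 0.000176). Bard1, the partner of BRCA1 in DNA repair, rose by 0.97 ± 0.19 and 1.01 ± 0.14. Cenpf, a kinetochore protein, rose by 1.26 ± 0.12 in ATRX KD and Nek2, a centrosome kinase, by 0.88 ± 0.11. Btg2 and Bok, which restrain growth and promote cell death, were the 2 that fell. The ATRXΔRBR call of Kifap3 was lost without WT replicate 2 or ATRXΔRBR replicate 1, and without either ATRX KD replicate 9 of the 15 ATRX KD calls were lost, among them those of Btg2, Bok and Kifap3.

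Among 19 tested chromatin regulators, 3 rose and 1 fell in ATRXΔRBR, and 10 rose in ATRX KD (6.88% and 33.1% of all genes passed), where 4 of the 10 (H3f3a, Phf3, Rbbp5 and Rcor3) no longer passed without either ATRX KD replicate. Hdac4, a class II histone deacetylase, was the member that rose in both, from 24.1 and 19.1 CPM in WT to 53.0 and 47.3 in ATRXΔRBR (1.22 ± 0.20, adjusted p = 0.00915) and to 47.4 and 47.0 in ATRX KD (1.12 ± 0.16, adjusted p = 0.00269). Kdm5b gave 13.8 and 15.2 CPM in WT, 7.03 and 6.61 in ATRXΔRBR, with 16.9 and 16.2 in ATRX KD. It fell by 1.08 ± 0.22 in ATRXΔRBR (adjusted p = 0.0253, lost without ATRXΔRBR replicate 2), where its TSS gained H3K27me3. In ATRX KD, Rb1cc1, which is known for its part in autophagy, rose by 1.39 ± 0.11 and Ino80d, a subunit of the INO80 remodeller, by 1.31 ± 0.13.

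The list of genes of mitochondrial and ribosomal proteins also held Idh1, a cytosolic isocitrate dehydrogenase, and Eef1b2, a translation elongation factor. The counts for the list include both. It had a median log2 fold change of 0.20 in ATRXΔRBR. Of its 22 genes, only Idh1 passed (0.75 ± 0.16, a call lost without any of the 4 libraries). In ATRX KD the median was −0.18, 6 fell and 16 did not pass (4.08% of all genes fell in ATRXΔRBR and 17.8% in ATRX KD), and 3 of the 6 (Cox5b, Mrpl30 and Rpl7) were lost without either ATRX KD replicate. Over all tested chromosome 1 genes the median log2 fold change was 0.32 in ATRXΔRBR and 0.25 in ATRX KD, so both medians of this list lay below it. Hspe1, a mitochondrial chaperonin, gave 29.0 and 27.5 CPM in WT, 22.4 and 27.5 in ATRXΔRBR, against 5.67 and 7.03 in ATRX KD, a fall of 2.13 ± 0.18 (adjusted p = 0.000415). Eef1b2 fell by 1.16 ± 0.15 and the ribosomal protein gene Rpl31 by 1.14 ± 0.18. These 3 lay in bins 12, 13 and 8, whose median ratios in ATRX KD were 0.17, 0.41 and 0.22.

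**Figure D5:**
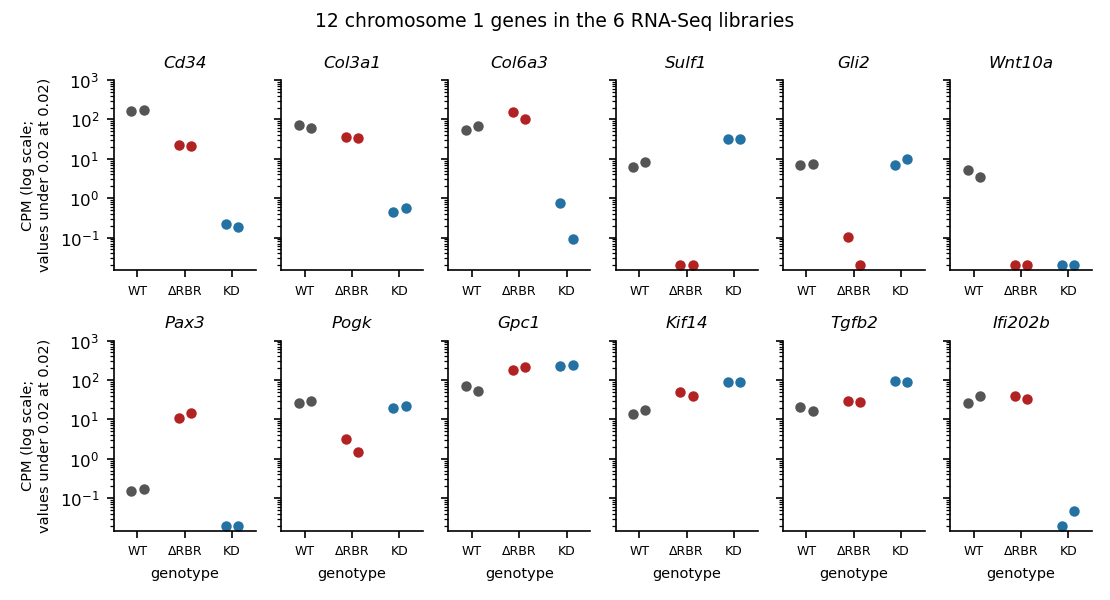
CPM (log axis) of 12 chromosome 1 genes in the 6 RNA-Seq libraries, 1 point per library by genotype, with values under 0.02 CPM drawn at 0.02. Cd34 falls from 159 and 178 in WT to 22.5 and 21.7 in ATRXΔRBR, with 0.218 and 0.185 in ATRX KD, while Kif14 rises from 13.5 and 17.7 to 49.7 and 40.3 and then 89.4 and 88.8.

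Outside these lists, Atp2b4, a calcium pump of the plasma membrane, rose by 2.81 ± 0.34 in ATRXΔRBR (adjusted p = 0.00267) and fell in ATRX KD (adjusted p = 0.00317), where its pooled counts were 3 against 68 in WT, a ratio of 27.8 with a counting interval of 9.13 to 138. Vangl2, a planar cell polarity protein, fell in ATRXΔRBR, with pooled counts of 2 against 133 in WT (a ratio of 61.8, interval 16.8 to 515), and by 1.90 ± 0.37 in ATRX KD. Pogk, a gene derived from a transposase, had 25.6 and 29.9 CPM in WT, 3.25 and 1.53 in ATRXΔRBR, with 19.5 and 21.3 in ATRX KD, and fell by 3.58 ± 0.34 in ATRXΔRBR (adjusted p = 0.000925).

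In ATRX KD, Cavin2, a coat protein of caveolae, gave 46.2 and 53.7 CPM in WT, 39.9 and 31.7 in ATRXΔRBR, against 0.218 and 0.231 in ATRX KD. It was near absent from both ATRX KD libraries and fell by 7.73 ± 0.26 (adjusted p = 2.44e-05). Erfe, the iron hormone erythroferrone, gave 10 and 11 counts in WT, 0 and 0 in ATRXΔRBR, with 291 and 735 in ATRX KD, a rise of 5.27 ± 0.22 (adjusted p = 4.28e-05). F11r, a junctional adhesion molecule of epithelium and endothelium, rose by 2.49 ± 0.17 in ATRX KD. Mark1, a kinase of microtubule-associated proteins, had 3.82 and 4.51 CPM in WT, 0 and 0 in ATRXΔRBR, against 9.16 and 8.61 in ATRX KD, so it was at least 15.6-fold lower in ATRXΔRBR and rose by 1.08 ± 0.23 in ATRX KD (adjusted p = 0.0114). Chst10, a sulfotransferase, was at 0 in all 4 altered libraries against 2.29 and 2.59 CPM in WT, at least 9.16-fold lower in ATRXΔRBR and at least 10.5-fold lower in ATRX KD.

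The comparison of ATRX KD with ATRXΔRBR, which does not use the WT libraries, called 330 of 1022 tested chromosome 1 genes (32.3%), 123 higher and 207 lower in ATRX KD, where 34.8% of all genes were called, 16.3% higher and 18.5% lower. The median log2 fold change was −0.093, against −0.015 for all genes. The list of ribosomal and mitochondrial protein genes, with Idh1 and Eef1b2 among its members, made up 12 of the 207. All 22 of that list were below 0, with a median of −0.48. Rpl37a (−0.96), Rpl7 (−0.81) and Cox20 (−1.15), an assembly factor of cytochrome c oxidase, were among those that passed. Of the developmental factors, Gli2 was higher in ATRX KD and 7 were lower, among them Pax3, which was at 0 in ATRX KD, and Eya1, by a log2 fold change of −1.64. Of the matrix genes, 4 were higher and 4 lower, the latter being Col3a1, Col6a3, Prelp and Fmod, a collagen-binding proteoglycan.

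ATRX peaks of chromosome 1 were few and varied between replicates. The lists held 501 and 260 in WT and 424 and 210 in ATRXΔRBR, and 170 peaks were in both WT lists and 96 in both ATRXΔRBR lists. Of the 170, 29 (17.1%) were in neither ATRXΔRBR list and 63 (37.1%) were in all 4, and 8 of the 96 (8.33%) were in neither WT list. The same shares of peaks over the genome are not given here, so nothing particular to chromosome 1 is read from these counts. From the lists of replicate number 1 alone 301 peaks were lost and 223 gained, and from those of replicate number 2 alone 101 and 51. Of the lost peaks 6 lay at a TSS, of the gained 1 and of the retained 16. The lost and retained peaks had the same GC content within their spread (49.3% ± 6.30, SD over 29 peaks, and 49.3% ± 7.05 over 63), and the gained had 48.8% ± 5.25 over 8. The median number of CpG per 100 bp was 1.01 in lost, 1.20 in gained and 1.20 in retained peaks, and the median width was 341, 333.5 and 418 bp. EZH2 peaks of both WT lists overlapped 12 of the lost, 1 of the gained and 36 of the retained peaks. The share of ATRX peaks at a TSS was 27.5% and 25.8% in WT and 46.2% and 20.95% in ATRXΔRBR, so the ATRXΔRBR replicates differed from each other by more than WT did from either. By gene, 13 protein-coding TSS had an ATRX peak in all 4 lists and 1, that of the phosphatase Phlpp1, lost it, while 0 gained one, where 0.424% of TSS lost and 0.337% gained an ATRX peak over the genome.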

How the data were processed

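The RNA-Seq files hold estimated counts per gene that the authors computed with RSEM after aligning reads with STAR, and they are not scaled between libraries. The deposited TPM values were computed by the authors in the same step, per length and library size, and the FPKM values that the authors deposited beside them were not used. For CUT&RUN the authors mapped reads to mm10 with Bowtie2 and called broad peaks in each library with MACS2. A peak's fold enrichment, as deposited, is its ratio to the local background, and its −log10 p and −log10 q, as deposited, are averages over the peak. The deposited score was not used. The files do not give the reads behind each peak list, so numbers of peaks were turned into shares of a list.

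Genes and transcription start sites (TSS) were taken from GENCODE M21 (GRCm38). A gene was placed in a 5 Mb bin by its TSS and a peak by its midpoint. A peak was at a TSS when at least 1 bp lay within 2 kb of it. Log2 ratios used TMM-scaled CPM with 0.5 added, for genes with a mean of at least 1 CPM over the 6 libraries, minus the median over all genes. Estimated counts were rounded, a gene needed more than 10 counts summed over the 4 libraries compared, and each comparison was fitted over all genes with edgeR 4.0.16 (quasi-likelihood test, TMM, adjusted p with Benjamini-Hochberg adjustment, called under 0.05) in R 4.3.3. Values after ± are standard errors unless said otherwise. Alternatives used DESeq2 1.42.0, its size factors, other filters, a single fit over all 6 libraries, a block for the replicate number and each library left out in turn. The fits were tested on simulated data. With 2 libraries per genotype an exact permutation test cannot go below a p of 0.333, so none is given for single values. A fold against libraries at 0 took 3 counts per library as the floor, and counting intervals are exact (Clopper-Pearson) and cover counting error only. Python 3.11.15, numpy 2.4.6, pandas 2.3.3, scipy 1.17.1 and matplotlib 3.10.9 were used for the rest.

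The genes named are, in each comparison with WT, the 10 called genes with the highest and the 10 with the lowest fold change whose CPM did not overlap between the genotypes and averaged at least 1, the called genes and the 2 most abundant of each list, the 3 most abundant of the 2 highest and 2 lowest bins, and those at the printed sequences. A selection of them is described. The members, the lists of genes and the tests were chosen with earlier results of these data known. IgG libraries were not analysed here. Some genes are not reported here.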

Additional observations from a re-analysis of the deposited data

How the results depend on the processing

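Of the 168 recomputed values for the main comparisons, 113 stayed within the limits set for them. Among single genes, 2157 recomputed fold changes kept direction and side of the threshold, 122 lost the call, 81 gained it and 1 changed sign, that of Dhx9 in ATRX KD, which was −0.31 without WT replicate 1 and 0.39 without WT replicate 2. The number of genes called in ATRXΔRBR was 181 without a filter, 61 with at least 10 counts in every library and 171 with all 6 libraries in a single fit, and it ranged from 99 to 154 when 1 library was left out. It ranged from 231 to 539 in ATRX KD and from 173 to 523 for ATRX KD against ATRXΔRBR, and a genotype left with 1 library is assumed to vary like the others. The share of called genes that were higher in ATRXΔRBR was 65.4%, and 80.3% with at least 10 counts in every library. The chromosome median without a filter was 0.10 in ATRXΔRBR and 0.0046 in ATRX KD, and in ATRX KD it was 0.28 at 10 CPM or more, 0.22 with a prior of 2 CPM, 0.27 for protein-coding genes and 0.24 to 0.27 with 1 library left out. Bins with a median above 0 numbered 10 of 10 filled bins in both genotypes at 10 CPM or more, and 33 of 34 in ATRXΔRBR and 25 of 34 in ATRX KD without a filter. In ATRX KD they were 16 of 17 by TPM, without WT replicate 2 and without ATRX KD replicate 2.

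The difference in ATRX share ranged from −1.10 to 1.29 points and that of EZH2 in ATRXΔRBR from −0.48 to 0.78 when 1 list was left out. At q of 0.01 or less, the differences were 1.14 for EZH2 in ATRX KD, 2.55 for H3K27me3 in ATRXΔRBR and 2.98 in ATRX KD, and by covered bases they were 2.70 and 3.88 for H3K27me3. Bins above WT numbered 5 at q of 0.01 or less, 0 with bins moved by 2.5 Mb and 3 to 21 with 1 list left out for ATRX, 2 by covered bases, 2 with moved bins and 7 to 19 for EZH2 in ATRXΔRBR, and 16 at q of 0.01 or less for H3K27me3 in ATRX KD. ATRX peaks lost, gained and retained numbered 13, 5 and 21 at q of 0.01 or less, 301, 223 and 200 from replicate number 1 alone, and 101, 51 and 159 from number 2 alone, and with 50% overlap 5 were gained and 30 retained. The share of peaks at a TSS with 1 kb windows and with protein-coding TSS was 22.7% and 18.5% for ATRX in WT, 53.2% and 50.7% for EZH2 in WT, 11.9% and 10.0% for H3K27me3 in WT, 10.9% and 8.15% in ATRXΔRBR, 16.7% and 19.5% in ATRX KD, and 66.6% for EZH2 in ATRX KD with protein-coding TSS. The cause of these differences was not tested beyond what each setting changes by construction.

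Replicate numbers recur in every genotype, but no label says that they pair the libraries, and the deviations of replicate 1 correlated at −0.60 between WT and ATRXΔRBR, −0.095 between WT and ATRX KD and 0.13 between ATRXΔRBR and ATRX KD. With the replicate number as a block, 102 genes were called in ATRXΔRBR, 383 in ATRX KD and 392 for ATRX KD against ATRXΔRBR, and 9 of 45 named calls in ATRXΔRBR and 4 of 94 in ATRX KD were lost.

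With 2 libraries per genotype, 1 ATRXΔRBR clone, ATRX KD libraries whose run is not named and peak lists without their read numbers, small differences could not be resolved. Genes with few counts and bins with under 20 genes carry wide error.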

Other observations

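Between the altered genotypes 34.8% of all genes were called (edgeR, ATRX KD against ATRXΔRBR), as were 8 of 20 ligands, receptors and secreted regulators, 10 of 26 genes of the cell cycle, DNA repair and apoptosis and 6 of 19 chromatin regulators, shares near that of all genes. Of the list of ligands, receptors and secreted regulators, which also held Rgs genes, Epha4 (log2 fold change 2.97), Rgs16 (1.76), Tgfb2 (1.67) and Nrp2 (0.68) were higher in ATRX KD. Cd34 (−6.78), Rgs2 (−3.71), Il1rl1 (−1.25) and the collagen receptor Ddr2 (−0.70) were lower. Of the cell cycle genes, the mitotic genes Kif14 (0.96), Cenpf (0.67), Nek2 (0.67) and Nuf2 (0.50) were higher in ATRX KD. The 6 that were lower were Phlda3 (−1.18) and Btg2 (−0.76), both targets of p53, and Nek7, Ube2t, Mcm6 and Xrcc5. Of the chromatin regulators, Rb1cc1 (1.52), Kdm5b (1.25), H3f3a (0.72), which encodes histone H3.3, and Smarcal1 (0.43) were higher in ATRX KD, and Tada1 and Bend6 were lower. Genes of this comparison were named after their values were seen.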
